A study of Sus scrofa with 4 samples.

Results

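The genes described here encode 9 enzymes and electron-transfer partners that make androgens and oestrogens or interconvert them: CYP17A1, CYB5A, POR, CYP19A1, HSD17B1, HSD17B4, HSD17B7, HSD17B12 and SRD5A1. They were taken by gene symbol from a deposited table of 22309 genes. The table's own symbol column gave 8 of them, and SRD5A1, which has no symbol there, was found by its Ensembl identifier in a table of gene names. The samples were pig ovaries collected in diestrus, 2 labelled WT and 2 labelled leptin overexpression. Leptin is the adipocyte hormone that signals fat stores. The transgenic group was of the F2 generation of a cross between Duroc/Landrace/Yorkshire sows and boars cloned again from 1 leptin founder, C013, according to the design text, and carriers were picked by PCR and blotting. Controls are described only as WT or control. The labels give no promoter for the transgene and no age of the sows. Nor do they say whether different animals gave the samples of a group, and p-values then measure a spread that may be technical. Oligo(dT)-enriched RNA was sequenced, and the table holds 16493113 to 16797511 counts per library.

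In the ovary, cholesterol is first turned into pregnenolone and progesterone. CYP17A1, with electrons from POR and help from the small haem protein CYB5A, turns these into androgens, classically in theca cells. CYP19A1, the aromatase, turns androgens into oestrogens in granulosa cells, and hydroxysteroid dehydrogenases of the HSD17B family set the balance of weak and strong sex steroids. Several members of that family are also, or mainly, enzymes of fatty acid and cholesterol metabolism. After ovulation the follicle becomes a corpus luteum, which makes mainly progesterone. The design text names steroidogenic enzymes among the study's measurements, and the comparison of the groups asks whether transcripts of this part of the pathway differ with leptin overexpression.

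The overexpressed gene, LEP, was counted 0 and 3 times in WT against 55 and 124 times in leptin overexpression, so each library went with its label (log2 fold change 6.18, SE 1.19, edgeR adjusted p = 0.198). With so few WT counts, the fitted value is no measure of size. The labelled tissue was checked against marker genes. Luteal markers, 10 genes, had a summed level of 24215 to 53525 CPM (CPM are counts scaled to the library total and TMM factor). Most of that sum in each library was STAR, CYP11A1 and HSD3B1, steroidogenic genes that are also read below. OXT was at or near 0, and PRLR was at 0.681 to 6.03 CPM. Granulosa markers summed to 1901.5 to 2061.1 CPM for 12 genes, but the gonadotropin receptor FSHR was at only 2.45 to 14.3 CPM. The oocyte genes DAZL and OOSP2 were at 0 in all 4 libraries. WT replicate 1 stood apart in several respects. Its luteal marker sum was the lowest, its oocyte marker sum was 144 CPM against 21.7 to 24.8 CPM in the other libraries, and its share of mitochondrially encoded counts was 6.89% against 12.9% to 16.4%. Surface and oviduct epithelium markers summed to 522 and 280.2 CPM in WT against 6.40 and 68.5 CPM in the other group (6 of 7 lower). EPCAM, the exception, made up 57.1 CPM of the last sum. Smooth muscle markers summed to 1417 and 1417.4 CPM in WT against 625 and 1035 CPM (7 of 7 lower, 5 without overlap). Of all genes tested, 22.9% were lower without overlap and 22.2% higher. Macrophage markers summed to 214 and 213 CPM in WT against 182 and 174 CPM. Here 4 of 6 were lower, 3 of them without overlap, and MRC1 was higher without overlap. Endothelial markers summed to 716, 1302, 884 and 429.8 CPM in the same order, with 6 of 7 lower. The part of these cell types in the results below was not tested. In bulk tissue, fewer cells of a type and less RNA per cell cannot be told apart, which holds for each gene below.

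Values are listed for WT replicates 1 and 2 and then for leptin overexpression replicates 1 and 2. None of the 9 genes passed the threshold (edgeR quasi-likelihood test, Benjamini-Hochberg adjusted p of 0.05 over 13937 genes), where 0.0287% of all genes tested did. CYB5A was higher in leptin overexpression by the largest amount, with a mean of 9112 CPM against 2194 CPM. CYP17A1 and CYP19A1 varied more within WT than between the groups. At an unadjusted p under 0.05, 1 of the 9 was higher, against 4.04% of all genes higher at that level. DESeq2 called 1, also CYB5A, and 0.657% of all genes higher. The groups did not overlap for 2 of the 9, CYB5A and HSD17B7, both higher, against 22.2% of all genes that were higher without overlap and 22.9% that were lower. Of the 9 values, 7 were higher and 2 lower, and the median log2 fold change was 0.50 against -0.01 over all genes tested. Without WT replicate 1, 5 values were higher and 4 lower (median 0.094), and without WT replicate 2 all 9 were higher (median 1.89), 4 of them past the threshold, as were 1.75% of all genes in that direction.

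**Figure D1:**
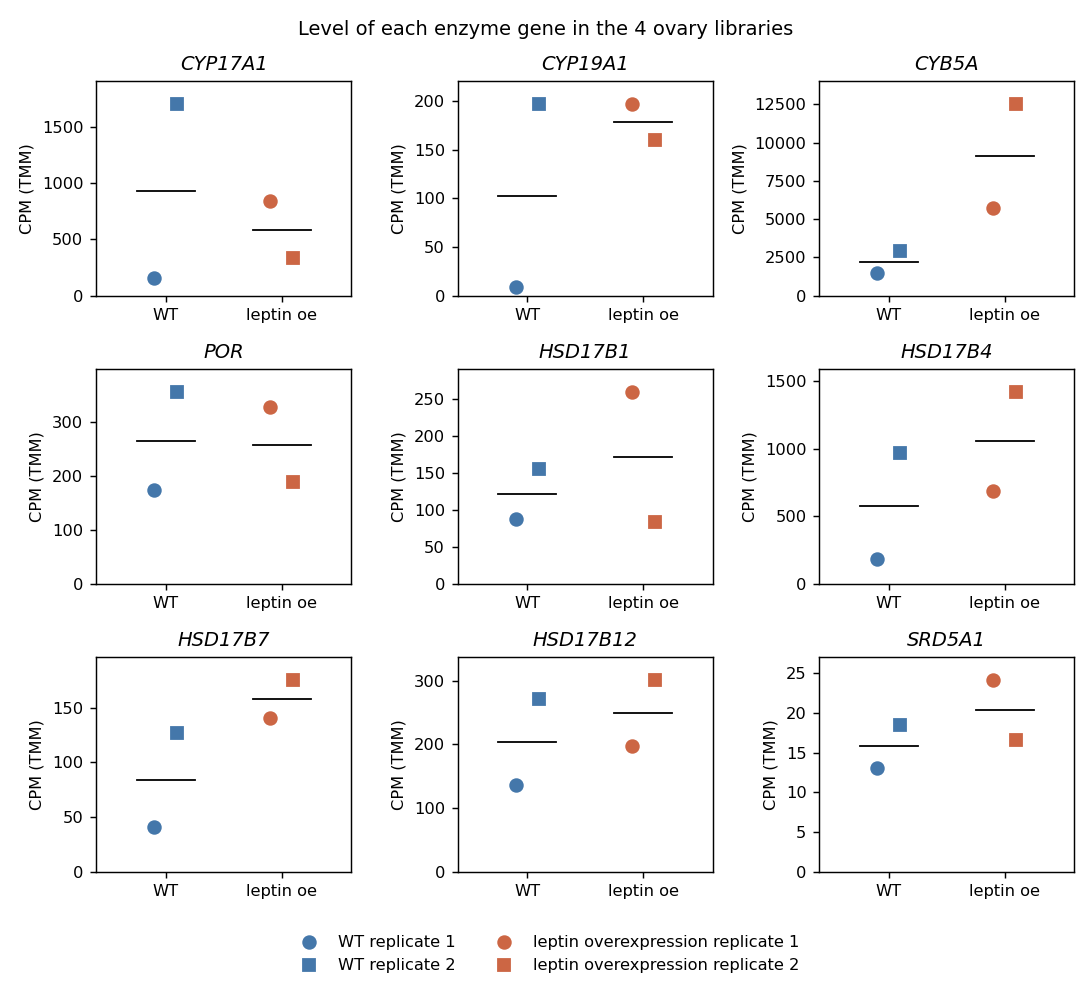
Level of each of the 9 genes in the 4 ovary libraries, in TMM-scaled CPM on axes that start at 0, with 1 point per library and a line at each group's mean (n = 2). The CYB5A points of the leptin overexpression group (leptin oe) lie above both WT points, whereas CYP17A1 and CYP19A1 are lowest in WT replicate 1 and highest, or close to it, in WT replicate 2.

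CYP17A1 (ENSSSCG00000010591) is the gateway to androgens, since it both hydroxylates progestagens and splits their side chain. Its level was 157, 1700.5, 836 and 337 CPM. The leptin overexpression libraries thus lay between the WT libraries, which differed 10.9-fold. Among 10692 genes with a mean of at least 5 CPM, only 0.645% differed as much or more between the WT libraries, where the median gene differed 1.28-fold. The log2 fold change was -0.66 (SE 1.03, 95% interval -3.15 to 1.82, edgeR adjusted p = 0.84). Without WT replicate 2 it was 1.89, whereas leaving out WT replicate 1 gave -1.55. The theca and stroma marker sum, 5738, 5793, 10565 and 6376 CPM, had another order, and so did INSL3. Most of that sum was the collagen gene COL3A1, at 3652, 4568, 8659 and 4989 CPM. INSL3, the theca peptide hormone, was at 22.3, 25.4, 7.38 and 33.5 CPM. The part of theca cell content in the CYP17A1 value was not tested.

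CYB5A (ENSSSCG00000004875) encodes cytochrome b5, which binds CYP17A1 and raises its lyase activity, the step that yields androgens; it also serves fatty acid desaturases. It was the most abundant of the 9 genes. The WT libraries were at 1483 and 2904 CPM, and the leptin overexpression libraries at 5704 and 12520 CPM. The lower of the leptin overexpression libraries was above the higher WT library. CYB5A took 0.198%, 0.290%, 0.527% and 1.01% of all counts, with an exact binomial 95% interval of 1.01% to 1.02% for the last. By length-scaled level (FPKM) it stood at ranks 53, 32, 19 and 10 among all genes. Its log2 fold change was 2.05 (SE 0.67, 95% interval 0.54 to 3.57, edgeR adjusted p = 0.377), and 152 of the genes tested had a higher one.

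CYB5A had a positive fold change in every alternative fit that was run. It passed with DESeq2 (log2 fold change 2.06, adjusted p = 0.00482) and without WT replicate 2 (2.59, edgeR adjusted p = 0.0112). It was 1.62 without WT replicate 1 and 1.39 without leptin overexpression replicate 2, the library with the highest value. Over all alternatives the adjusted p ranged from 0.00482 to 1. Within the groups the libraries differed 1.96-fold (WT) and 2.195-fold (leptin overexpression). The order of the 4 libraries was also that of the mitochondrial share of counts, 6.89%, 12.9%, 15.1% and 16.4%, and the reverse of that of the TMM factors, 1.34, 0.998, 0.925 and 0.809. Of all genes tested, 10.99% had this order of levels. The part of these library differences in the CYB5A result was not tested.

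POR (ENSSSCG00000038320), the flavoprotein that passes electrons from NADPH to every microsomal cytochrome P450, was at 174, 356, 328 and 189 CPM. Each group had a low library close to the other's low one, and the means were 265 ± 129 (SD, n = 2) and 258 ± 98.0 CPM. The fitted log2 fold change was -0.04 (SE 0.50, 95% interval -1.18 to 1.104, edgeR adjusted p = 0.983). Against CYP17A1, its best known ovarian client, the ratio of POR counts was 1.11, 0.209, 0.392 and 0.562. The groups overlapped in this ratio.

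CYP19A1 (ENSSSCG00000030168) is the aromatase. It had 203, 3299, 3021 and 2151 counts, or 9.21, 197, 197 and 161 CPM. WT replicate 1 was far below the other 3 libraries, which were close together; the exact Poisson 95% interval of its 203 counts is 176 to 233, so counting error does not cover the gap. The WT libraries differed 21.4-fold, and 0.299% of the 10692 genes differed as much. The leptin overexpression libraries differed only 1.23-fold, less than the median gene there (1.41-fold). The log2 fold change was 0.80 (SE 1.29, 95% interval -2.55 to 4.14, edgeR adjusted p = 0.847). Leaving out WT replicate 1 gave -0.16, and leaving out WT replicate 2 gave 4.26 (edgeR adjusted p = 8.44e-07), and this last fit holds no spread within WT. With limma-trend on log2(FPKM + 0.1), CYP19A1 passed (1.65, limma adjusted p = 0.00729), as did 0.753% of all genes in that direction. On log2(FPKM + 1) its log2 fold change was similar, 1.55, but CYP19A1 did not pass (limma adjusted p = 0.159).

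WT replicate 1 was also the library with the lowest luteal and the highest oocyte marker sum; the part of cell make-up in the CYP19A1 value was not tested. Pigs carry closely related aromatase genes next to each other on the chromosome, CYP19A1, CYP19A2 and CYP19A3 in RefSeq (Sscrofa11.1). Only CYP19A1 matched a row by symbol, so how reads of such copies were assigned is uncertain.

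HSD17B1 (ENSSSCG00000035147), which reduces oestrone to the more potent oestradiol in granulosa cells, was at 87.5, 156, 260 and 84.2 CPM. Leptin overexpression held both the highest and the lowest library. Its log2 fold change was 0.50 (SE 0.57, 95% interval -0.80 to 1.7997, edgeR adjusted p = 0.769), and it was -0.52 without leptin overexpression replicate 1. The 3.09-fold gap between the leptin overexpression libraries was matched or exceeded by 3.64% of genes. Of the 12 granulosa markers, 4 were highest in leptin overexpression replicate 1, as HSD17B1 was, 3 in each WT library and 2 in leptin overexpression replicate 2, and their sum was nearly flat (1958.6, 2003.6, 2061.1 and 1901.5 CPM). Among the 4, FSHR was at 5.81, 2.45, 14.3 and 4.63 CPM and the inhibin subunit gene INHBB at 22.0, 70.6, 105 and 12.6 CPM. The flat sum held opposite changes, with INHA at 565, 300, 253 and 137 CPM and SERPINE2 at 300, 594, 647 and 663 CPM. Of the 12 markers, 6 had higher and 6 lower values in leptin overexpression. The part of granulosa cell content in the HSD17B1 value was not tested. The identity of this row is less sure than that of the others. Its counts were not whole in any library, as where reads are divided among transcripts. Counts and FPKM together implied a transcript of 4606 to 4607 bases, against 1510 to 1656 for HSD17B7, whose protein is of similar size. Length alone does not set the row apart, since HSD17B4 had 4354 to 4355 bases and SRD5A1 3668 to 3674. The sources used here do not say which transcripts the row covers. Its RefSeq neighbours are COASY and ATP6V0A1. COASY, at 32.3, 63.4, 46.5 and 36.2 CPM, was highest in WT replicate 2. ATP6V0A1, at 59.7, 49.5, 61.4 and 27.7 CPM, had its highest and lowest values in the same libraries as HSD17B1, although 61.4 and 59.7 CPM are close.

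HSD17B4 (ENSSSCG00000028431) is the peroxisomal multifunctional enzyme, which oxidises oestradiol but acts mainly in the breakdown of very long and branched fatty acids. It was at 184, 969.5, 689.7 and 1421 CPM. WT replicate 1 was the lowest and leptin overexpression replicate 2 the highest, with the other libraries between them and the groups overlapping. The WT libraries differed 5.26-fold, which 1.86% of genes matched or exceeded. Its log2 fold change was 0.87 (SE 0.77, 95% interval -0.90 to 2.64, edgeR adjusted p = 0.703). It was 0.094 without WT replicate 1 and came to 2.48 without WT replicate 2 (edgeR adjusted p = 0.0101).

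HSD17B7 (ENSSSCG00000006337) reduces oestrone in some tissues and is also a ketosteroid reductase of cholesterol synthesis. It was at 40.6, 127, 140.3 and 175 CPM, and the groups did not overlap, although WT replicate 2 and leptin overexpression replicate 1 were close (2123 and 2149 counts, with exact Poisson 95% intervals of 2034 to 2215 and 2059 to 2242). The log2 fold change was 0.91 (SE 0.54, 95% interval -0.30 to 2.13, edgeR adjusted p = 0.60). Without WT replicate 1 it was 0.29, and without WT replicate 2 it was 1.93 (edgeR adjusted p = 0.0489). Its libraries had the same order as those of CYB5A.

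HSD17B12 (ENSSSCG00000021739), the ketoacyl reductase of fatty acid elongation that can also reduce oestrone, was at 135, 270.3, 197 and 300.5 CPM, with overlapping groups. The fitted log2 fold change was 0.30 (SE 0.48, 95% interval -0.79 to 1.38, edgeR adjusted p = 0.845). It was the only one of the 9 whose implied transcript length moved by over 1.1 times between libraries. The length was 2002 and 2129 bases in WT and 2246 and 2344 bases in leptin overexpression, longer in each library of the latter. Of 5705 genes with at least 100 counts and 5 FPKM in every library, 12.0% moved by over 1.1 times, and 3.03% of all did so with both leptin overexpression libraries longer. The sources used here do not say which transcripts of HSD17B12 were counted.

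SRD5A1 (ENSSSCG00000017103), a steroid reductase that forms dihydrotestosterone and reduces progesterone, was the least abundant, at 13.1, 18.6, 24.2 and 16.6 CPM. The libraries within each group differed by 1.42-fold and 1.46-fold. The fitted log2 fold change was 0.36 (SE 0.42, 95% interval -0.58 to 1.31, edgeR adjusted p = 0.771). It was 0.082 without leptin overexpression replicate 1, 0.12 without WT replicate 1 and at most 0.62 with another library left out.

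**Figure D2:**
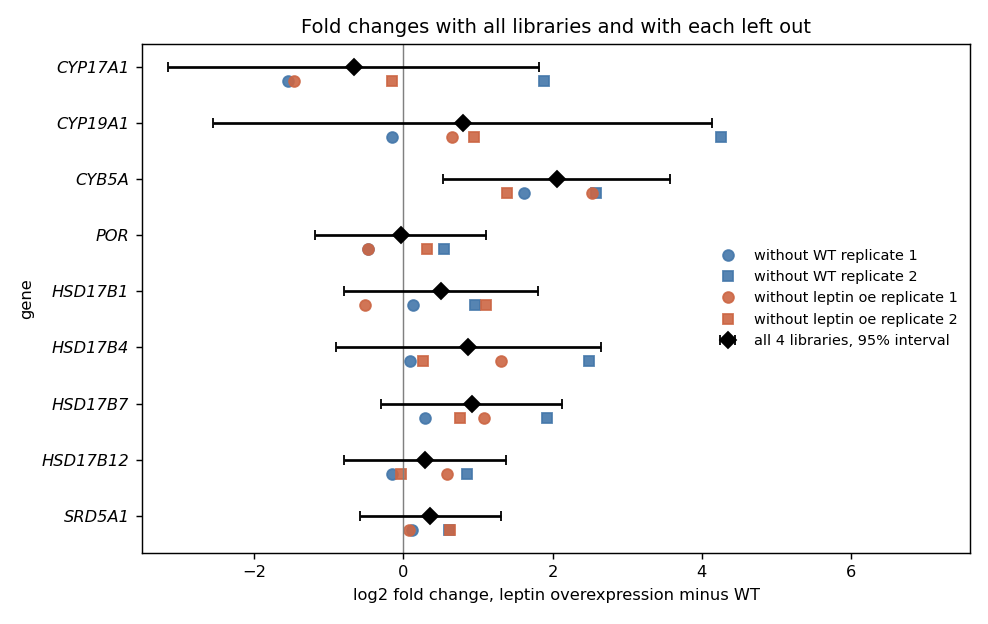
Log2 fold change of each gene, leptin overexpression minus WT, with all 4 libraries (black diamonds, 95% interval) and with each library left out (blue and red symbols, drawn just below). Only the CYB5A interval, 0.54 to 3.57, lies above 0, and the values without a WT library are far apart for CYP17A1 and CYP19A1.

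Levels can be compared between genes on the deposited FPKM scale, which accounts for transcript length. In WT replicate 1 the order was CYB5A (1195 FPKM), CYP17A1 (112), HSD17B12 (90.3), POR (84.0), HSD17B4 (56.6), HSD17B7 (35.9), HSD17B1 (25.4), CYP19A1 (5.26) and SRD5A1 (4.77). In leptin overexpression replicate 2 it was CYB5A (5880 FPKM), HSD17B4 (264), CYP17A1 (146), HSD17B12 (104), HSD17B7 (87.7), CYP19A1 (56.2), POR (55.5), HSD17B1 (14.8) and SRD5A1 (3.65). CYB5A came first in each of the 4 libraries and SRD5A1 last. The order of all genes between them changed from library to library, and the ranges of POR (55.5 to 129 FPKM), HSD17B12 (81.2 to 127) and HSD17B7 (35.9 to 87.7) overlapped. CYP17A1 ranged from 112 to 911 FPKM and CYP19A1 from 5.26 to 83.3 FPKM, so aromatase stayed below CYP17A1 in each library.

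**Figure D3:**
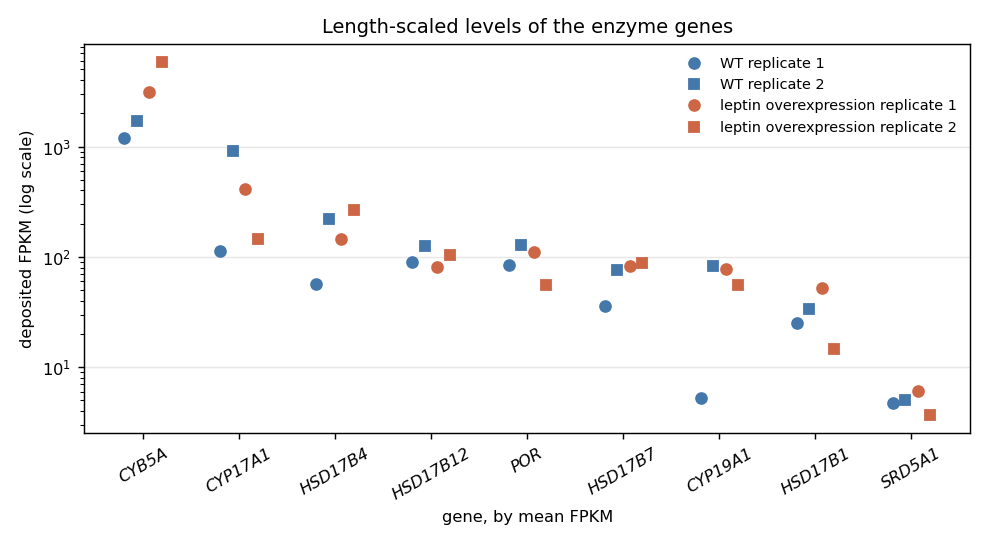
Deposited FPKM of the 9 genes in each library on a log axis, ordered by mean FPKM. CYB5A lies between 1195 and 5880 FPKM, above every other gene, and SRD5A1 between 3.65 and 6.09 FPKM.

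Ratios within a library do not depend on how libraries are scaled to each other, so 8 ratios of counts were compared (exact permutation test, two-sided; 2 samples against 2 cannot give a p below 0.333). In the ratio of aromatase to CYP17A1 the groups stood apart. CYP19A1 had 0.0588, 0.116, 0.236 and 0.477 counts per CYP17A1 count, or 0.0468, 0.0914, 0.189 and 0.385 per length on the FPKM scale. Both leptin overexpression libraries had more aromatase per CYP17A1 than either WT library. The log2 ratio averaged -3.60 ± 0.69 (SD, n = 2) for WT against -1.58 ± 0.72 for leptin overexpression, a difference of 2.02 (exact p = 0.333, 0.889 adjusted over the 8 ratios). With each library left out in turn the difference was 1.52 to 2.53. Of all other genes tested, 1.58% had a ratio to CYP17A1 that was higher without overlap. Taken against CYP19A1 instead, 31.5% of genes had a ratio that was lower without overlap, as CYP17A1 did. The levels of both genes were known before this ratio was chosen. Its libraries again stood in the order of the mitochondrial share.

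The ratio of CYP19A1 to CYP11A1, the enzyme that starts steroid synthesis, was 0.00241, 0.0162, 0.0213 and 0.0211. The groups did not overlap, as for 3.93% of genes against CYP11A1, and WT replicate 1 set most of the difference, which was 1.76 on the log2 scale with all libraries and 0.39 without it (exact p = 0.333). POR counts per CYP19A1 count were 18.9, 1.81, 1.66 and 1.18, lower in leptin overexpression without overlap, as for 31.5% of genes against CYP19A1 (difference -2.06, and -0.37 without WT replicate 1; exact p = 0.333). In the other 5 ratios the groups overlapped. They were CYB5A to CYP17A1 (9.47, 1.71, 6.82 and 37.2), HSD17B1 to CYP19A1 (9.50, 0.792, 1.32 and 0.524), CYP17A1 to CYP11A1 (0.0410, 0.140, 0.0904 and 0.0441) and CYP17A1 to HSD3B1 (0.0252, 0.193, 0.0983 and 0.0403) and POR to CYP17A1. CYP17A1 was uneven also against the earlier enzymes of its pathway, high in WT replicate 2 and low in WT replicate 1 and leptin overexpression replicate 2.

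**Figure D4:**
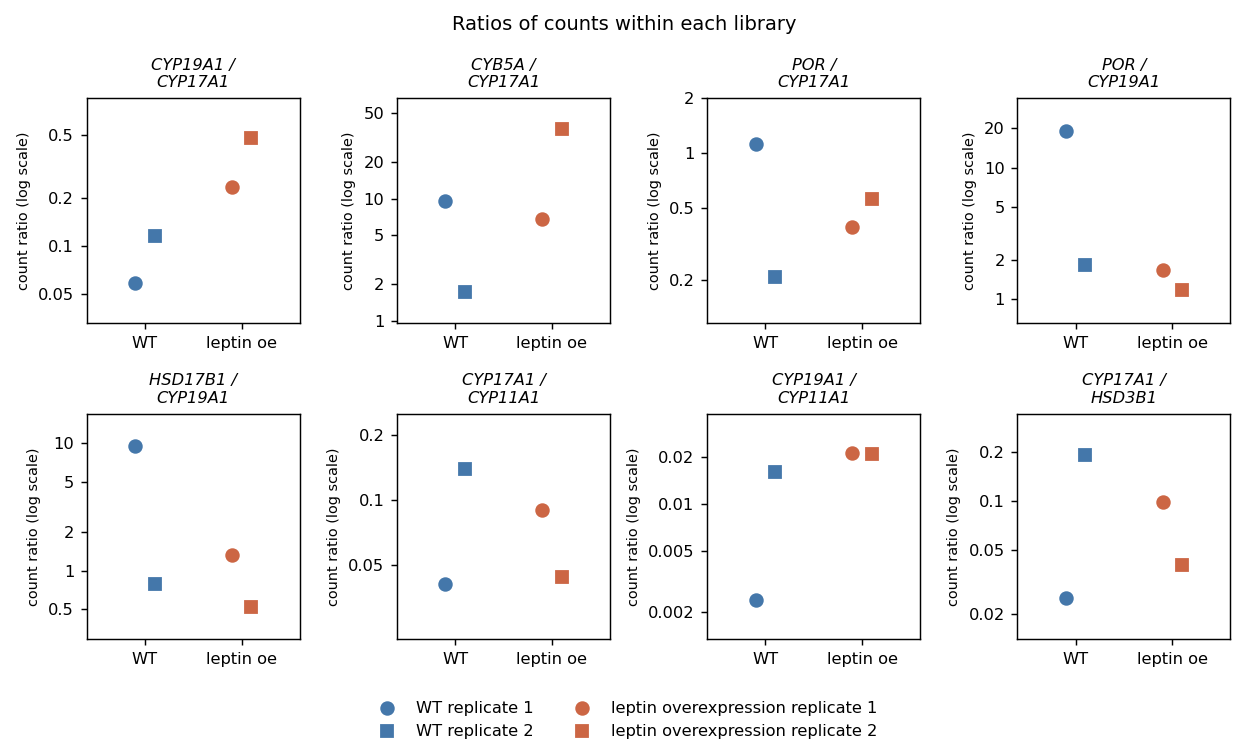
Ratios of counts of 2 genes within each library, on log axes, with 1 point per library. The CYP19A1 to CYP17A1 ratio lies at 0.0588 and 0.116 for WT, below the 0.236 and 0.477 of leptin overexpression; POR to CYP19A1 and CYP19A1 to CYP11A1 also do not overlap, and the other 5 ratios do.

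Genes with the most similar pattern over the 4 libraries were named by the smallest root mean square difference of centred log2 CPM, among 10454 genes with a symbol and a mean of at least 5 CPM; with 4 libraries this is a description only. For CYP17A1 they were GPX3 (0.272), LPIN1 (0.276) and PLAT (0.290). GPX3, a secreted glutathione peroxidase, was at 1536, 10291, 6961 and 3162 CPM, and PLAT, the tissue plasminogen activator, at 147, 1074, 479 and 195 CPM. For CYP19A1 they were AVPR1A (0.216), IGFBP3 (0.258) and HSD17B2 (0.401). IGFBP3, which binds insulin-like growth factors, was at 27.8, 422, 417 and 285 CPM. HSD17B2, which oxidises oestradiol and testosterone, was at 0.681, 19.6, 30.8 and 33.7 CPM. HSD17B2 was picked by its likeness to CYP19A1, so its low level in WT replicate 1 follows from that choice. For HSD17B1 they were ENC1 (0.0988), CNNM1 (0.110) and ID2 (0.138), with ID2 at 13.02, 23.8, 47.7 and 15.5 CPM.

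Genes around the 9 enzymes were read from 7 lists, and 0 of their tested members passed the edgeR threshold in either direction, with 5 higher and 2 lower of 95 at an unadjusted p under 0.05, where 4.04% of all genes were higher and 5.32% lower. DESeq2 also called 0. With no filter, and with library totals alone, 1 gene of sex steroid conjugation and breakdown passed. On log2(FPKM + 1) 1 of the other steroidogenic genes passed. On log2(FPKM + 0.1) 1 passed in each of these 2 lists and 1 in the cholesterol synthesis list. These fits called more of all genes as well, as given at the end. Without WT replicate 2, the lists' median log2 fold changes ran from 0.013 (regulators and receptors) to 1.38 (cholesterol synthesis), against 0.02 for all genes. Among other steroidogenic enzymes and cofactors, 22 of 29 matched a row and 21 were tested; 11 had higher and 10 lower values, with a median log2 fold change of 0.0046, and 2 were higher at an unadjusted p under 0.05. Without WT replicate 1, 7 were higher and 14 lower (median -0.27). The groups did not overlap for 7 higher and 3 lower of the 21, against 22.2% and 22.9% of all genes. STAR, which brings cholesterol into mitochondria, was at 7022, 15164, 16546 and 23771 CPM, higher without overlap. CYP11A1 was at 3822, 12182, 9244 and 7631 CPM and HSD3B1 at 6222.5, 8819.6, 8503 and 8361 CPM. HSD17B11, a lipid droplet enzyme that can oxidise androstanediol, was at 29.8, 62.4, 72.7 and 141 CPM (log2 fold change 1.22, SE 0.49, edgeR adjusted p = 0.51), also in the order of CYB5A. HSD17B3, the testicular enzyme of testosterone synthesis, had 7 counts in WT replicate 1 and 0 in the others and was not tested.

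Among genes of sex steroid conjugation and breakdown, 8 of 14 were tested, with 6 higher and 2 lower and a median of 0.28 (0.73 without WT replicate 2). CYP1B1, which hydroxylates oestradiol, was at 345, 649, 998 and 758 CPM, higher without overlap. PAPSS2, which makes the sulfate donor, was at 347, 1264, 1255 and 947 CPM. The steroid sulfatase STS, at 4.22, 4.59, 6.33 and 5.75 CPM, did not overlap between groups. Regulators and receptors were evenly divided, with 8 higher and 10 lower of 18 tested (median -0.03, and -0.27 to 0.19 with a library left out). NR5A2, a nuclear receptor that drives CYP19A1 in granulosa and luteal cells, was at 656, 402, 495 and 559 CPM. GATA6 was at 130, 91.4, 136 and 142 CPM and PRKAR2B, a regulatory subunit of protein kinase A, at 279, 313, 339 and 430.1 CPM. CREM, a cyclic AMP-responsive factor, was at 13.2, 21.1, 32.1 and 43.3 CPM (log2 fold change 1.14, SE 0.41, edgeR adjusted p = 0.446). IGF1R was at 51.6, 56.4, 47.3 and 22.1 CPM, lower without overlap.

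**Figure D5:**
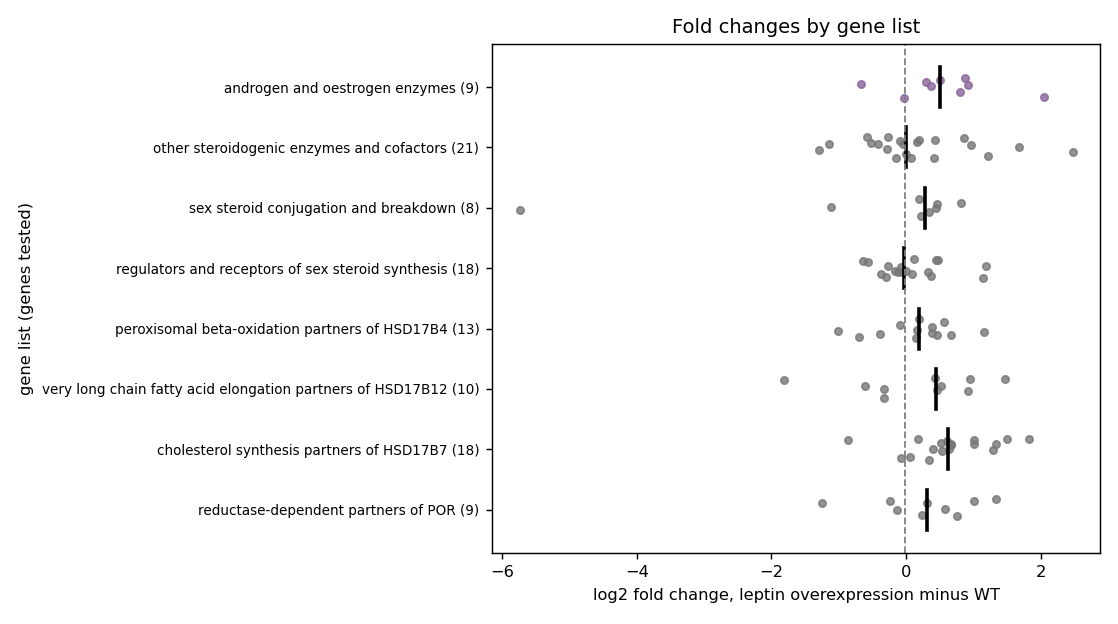
Log2 fold changes of the tested genes of each list, 1 point per gene, with a bar at the list's median and a dashed line at the median of all genes tested (-0.01). The 9 enzymes have a median of 0.50 and the cholesterol synthesis list 0.63; UGT2B31, the point at -5.74, had 0 counts in 1 leptin overexpression library, so its fitted value is no measure of size.

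Partners of the enzymes that also serve lipid metabolism were read by pathway. Of 18 cholesterol synthesis genes, the pathway that HSD17B7 belongs to, 16 had higher and 2 lower values, 10 higher and 0 lower without overlap (22.2% and 22.9% of all genes), with a median of 0.63; 1 was higher at an unadjusted p under 0.05. HMGCS1 was at 491, 2267, 2885 and 3903 CPM, and MSMO1, which works with HSD17B7 in removing methyl groups from sterols, at 480.2, 1527, 2023 and 3665 CPM. SC5D, a late desaturase, was at 34.8, 134, 175 and 424 CPM (log2 fold change 1.83, SE 0.71, edgeR adjusted p = 0.509). WT replicate 1 was the lowest library for each of these 3, as it was for HSD17B7. Without it 10 of the 18 had higher and 8 lower values, with a median of 0.06, and without WT replicate 2 all 18 were higher (median 1.38), so the lean of this list rested on WT replicate 1.

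Of 13 peroxisomal genes that work beside HSD17B4, 9 had higher and 4 lower values, with a median of 0.19. Without WT replicate 1 they were 7 and 6 (median 0.051), and without WT replicate 2 the median was 0.39. CAT, the peroxisomal catalase, was at 243, 672, 686 and 1363 CPM, the order of CYB5A. SCP2, which carries the thiolase of the pathway, was at 71.5, 425, 111 and 135 CPM, highest in WT replicate 2. Of 10 fatty acid elongation genes beside HSD17B12, 6 were higher and 4 lower, with a median of 0.45, which ran from 0.16 without leptin overexpression replicate 2 to 0.68 without WT replicate 2. ELOVL5, the elongase of polyunsaturated chains, was at 139.5, 300.3, 413 and 802 CPM (log2 fold change 1.47, SE 0.55, edgeR adjusted p = 0.482), ELOVL6 at 73.7, 236, 98.3 and 149 CPM, HACD3 at 102, 116, 136 and 156 CPM and HACD4 at 9.98, 16.7, 16.9 and 34.5 CPM.

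Of 9 tested enzymes that depend on POR or its electrons, 6 were higher and 3 lower, with a median of 0.31, while POR itself had a fold change near 0. The median was 0.12 without WT replicate 1 (5 higher and 4 lower), 0.13 without leptin overexpression replicate 2 and 0.69 without WT replicate 2. CYP51A1, the sterol demethylase, was at 151, 463, 484 and 1065 CPM, SQLE, the squalene epoxidase, at 89.6, 343, 384 and 489.96 CPM, and HMOX1, the inducible haem oxygenase, at 40.2, 51.9, 53.9 and 60.2 CPM. Each was higher in leptin overexpression without overlap, as 22.2% of all genes tested were. CYP51A1 and SQLE are also on the cholesterol list. CYP2J34, an arachidonate-metabolising P450, was lower, at 17.7, 16.9, 7.57 and 6.95 CPM, with close libraries in each group (log2 fold change -1.25, SE 0.42, edgeR adjusted p = 0.388).

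For 3 genes the direction under library totals alone or on FPKM values differed from that under TMM factors. Directions that changed with a replicate block or with a library left out are given at the end. With library totals alone the median of all genes moved from -0.01 to -0.43, and with limma-trend on log2(FPKM + 0.1) to -0.40. In the first fit HSD17B12 and SRD5A1 had log2 fold changes of -0.08 and -0.01 and HSD17B1 0.18, and in the second, which also changes the values and the model, HSD17B12, SRD5A1 and HSD17B1 had -0.22, -0.05 and -0.07. Relative to the median of all genes these 3 were higher in either fit, by 0.18 to 0.61. CYB5A was 2.09 and 1.99 above that median, CYP19A1 1.01 and 2.06, HSD17B7 1.02 and 1.102 and HSD17B4 0.99 and 1.21. CYP17A1 was at -0.43 and 0.025 and POR at 0.066 and -0.0094. The lists moved too: with library totals alone 12 of the 18 cholesterol genes and 5 of the 21 other steroidogenic genes had higher values, with medians of 0.29 and -0.33 against -0.43 for all genes.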

How the data were processed

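Ovary RNA of 2 WT and 2 leptin overexpression samples was analysed from 1 deposited table. Its expected counts, estimated by the authors and not scaled to depth, and its deposited FPKM values, scaled to length and depth, carry those names per the file headers. Without roles, the submitters' processing notes list RSEM, edgeR 3.32.0, StringTie 1.3.1, HISAT2, DESeq2, fastp 0.18.0 and Bowtie2 2.2.8; genome build and strand use were not given in the sources used here. Control columns were read as the WT samples with that number.

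For tests the counts were rounded, and filterByExpr kept 13937 of 22309 genes. Groups were compared with edgeR's robust quasi-likelihood test (edgeR 4.0.16, limma 3.58.1, DESeq2 1.42.0, R 4.3.3; TMM factors, 2 residual degrees of freedom), with Benjamini-Hochberg adjustment over all genes. SE is the absolute log2 fold change over the square root of F. The test was checked on simulated data. Alternatives were RLE factors, no filter, DESeq2, limma-trend on log2(FPKM + 1) or (FPKM + 0.1), a replicate block, each library left out, and, added after the data were seen, library totals alone and the lists under each fit.

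Implied transcript length is counts over FPKM and the library total. Counting intervals cover counting error only. The genes and lists were chosen with earlier results of these data known. Symbols came from the table (15153), a gene names table (664) and RefSeq, Sscrofa11.1 (2222); 106 of 118 list entries and 70 of 73 markers matched. Named from each list were genes past the threshold, the 3 with the highest mean CPM and the 2 with the largest change among those of at least 5 CPM whose groups did not overlap. HSD17B3, UGT2B31, COASY and single markers were named after their values were seen. Some genes that this rule names are not reported here.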

Additional observations from a re-analysis of the deposited data

How the results depend on the processing

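Genes past the threshold, higher and lower, numbered 4 and 0 with all libraries, 84 and 168 with no filter, 104 and 215 with DESeq2, 70 and 256 with limma-trend on log2(FPKM + 1), 105 and 413 on log2(FPKM + 0.1), 73 and 478 with library totals alone, and 0 to 258 and 0 to 423 with a library left out. Of the 9 enzyme genes, 0 passed with all libraries, 1 with DESeq2 (CYB5A), 1 on log2(FPKM + 0.1) (CYP19A1), and 0 to 4 with a library left out, the 4 being CYP19A1, CYB5A, HSD17B4 and HSD17B7 without WT replicate 2. RLE factors changed no direction or call among the 9. On log2(FPKM + 1), HSD17B1, HSD17B12 and SRD5A1 had log2 fold changes of -0.064, -0.22 and -0.040, on log2(FPKM + 0.1) -0.075, -0.22 and -0.054, and with library totals alone HSD17B12 and SRD5A1 had -0.084 and -0.013. The median of all genes moved as well. The cause of these differences in counts and signs was not tested. With a library left out, ranges that crossed 0 were -1.55 to 1.89 (CYP17A1), -0.16 to 4.26 (CYP19A1), -0.48 to 0.55 (POR), -0.52 to 1.11 (HSD17B1) and -0.14 to 0.85 (HSD17B12). For differences of log2 ratios they were -1.24 to 1.17 (POR to CYP17A1), -3.51 to 0.070 (HSD17B1 to CYP19A1), -1.14 to 0.62 (CYP17A1 to CYP11A1) and -1.62 to 1.32 (CYP17A1 to HSD3B1); FPKM in place of counts reversed none. These fits take the lone sample of a group to vary as much as the pair of the other.

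Same-numbered libraries did not deviate together (r = -0.099 across genes). With 2 libraries per group this cannot show whether same-numbered samples share an origin, and the labels do not say. With a replicate block 11 genes were higher and 12 lower, 0 of the 9 enzyme genes passed, and the fold changes of CYP17A1 and POR were 0.039 and 0.0002.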
